A study of Mus musculus with 8 samples.

Results

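Extracellular matrix and matrix remodelling genes were followed as a named set of 41 genes in mouse pre-iPSCs, which are partly reprogrammed cells that have not reached pluripotency. The set holds structural proteins (proteoglycans, collagens, laminins, adhesive glycoproteins and microfibril proteins), the lysyl oxidases that cross-link them, the metalloproteinases that cut them and the inhibitors of those enzymes. Its members were chosen by gene symbol with earlier results of these data known, and each was read through its brightest Illumina bead-array probe. The shares of all features set beside the counts below therefore describe and do not test the set. In the annotation used here 38 of the 41 had a probe, among 19057 symbols in all, and no value is given for Spp1 (osteopontin), Loxl2 (a lysyl oxidase) or Fbn1 (fibrillin-1).

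The cells were female, came from 129/MF1 neural stem cells, carried an Oct4-GFP-IRES-puro reporter and grew on gelatin in serum with LIF. All were stably transfected with PiggyBac vectors under a CAG promoter and sampled at day 0. There were 4 groups of 2 arrays, namely Nanog+Sin3a, Nanog (with an empty vector), Sin3a (with an empty vector) and EV, which carried empty vectors in place of both transgenes, so stable transfection was shared by every group. Nanog is a homeodomain factor of the pluripotency network, Sin3a is the scaffold of a histone deacetylase co-repressor complex, and the series asks about their cooperation in reprogramming. The labels do not say whether the 2 arrays of a group came from separate cultures, so the spread behind each p-value is that of arrays and may be technical.

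The extracellular matrix is the network of secreted proteins to which cells attach through integrins. Collagen fibrils and laminin sheets give it structure, small leucine-rich proteoglycans and matricellular proteins tune its assembly, latent TGF-beta binding proteins store growth factor in it, and metalloproteinases with their TIMP inhibitors set its turnover. Early embryonic and pluripotent cells rest on laminin-rich basement membrane, and fibrillar collagens are typical of fibroblasts and other mesenchymal cells.

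The arrays held 45281 probes each, with background-subtracted intensity from -24 to 14965.3, and values below 16 were raised to 16 (4 on the log2 scale, called the floor) before taking log2. Across the tested features, the arrays of a group correlated at 0.985 (Nanog+Sin3a), 0.987 (Nanog), 0.832 (Sin3a) and 0.994 (EV), a description across features, which are not replicates. In the Sin3a group the second array scattered at low intensity, but on features with a mean log2 value above 9 (bright features) the Sin3a arrays correlated at 0.989. Comparisons among Nanog+Sin3a, Nanog and EV were fitted on the other 7 arrays, in which the first Sin3a array was assumed to vary like the other groups, and comparisons with Sin3a on the bright features of all 8 arrays. The Nanog probe read 289.5 and 285.2 in the Nanog+Sin3a arrays and 365 and 486 in the Nanog arrays, against -7.3 and -12.2 in the Sin3a arrays and -3.6 and -5.4 in the EV arrays. The Sin3a probe read 1485 and 1483 in the Nanog+Sin3a arrays, 344 and 472.5 in the Nanog arrays, 1182 and 1142 in the Sin3a arrays and 329 and 262 in the EV arrays, so both transgenes followed their labels.

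Most collagen genes were not above the floor in these cells. Of the 38 measured matrix genes, 12 (31.6%) were above the floor on all 7 arrays, against 39.3% of all symbols. These were the proteoglycans Prelp and Bgn, the glycoproteins Sparc, Fn1, Tgfbi and Tnc, the growth factor binding Ltbp3, Col6a1, the laminin chains Lama5 and Lamc1, and the protease inhibitors Timp1 and Timp2. A further 12 (31.6%, against 38.7% of all symbols) were at or below the floor on all 7 arrays. They included Col1a2 and Col3a1, chains of fibrillar collagen types I and III, Col4a2 of basement membranes, Col5a2, Col6a2, the laminin chain Lama1 and Lox, a lysyl oxidase that cross-links collagen and elastin. The gelatinase Mmp2, the membrane-bound protease Mmp14, the proteoglycans Lum and Vcan and the matricellular gene Postn completed them. The other 14 (36.8%, against 22.1% of all symbols) were above the floor on some of the 7 arrays. The heat map of all measured matrix genes shows the dark collagen, lysyl oxidase and metalloproteinase blocks at the floor.

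**Figure D1:**
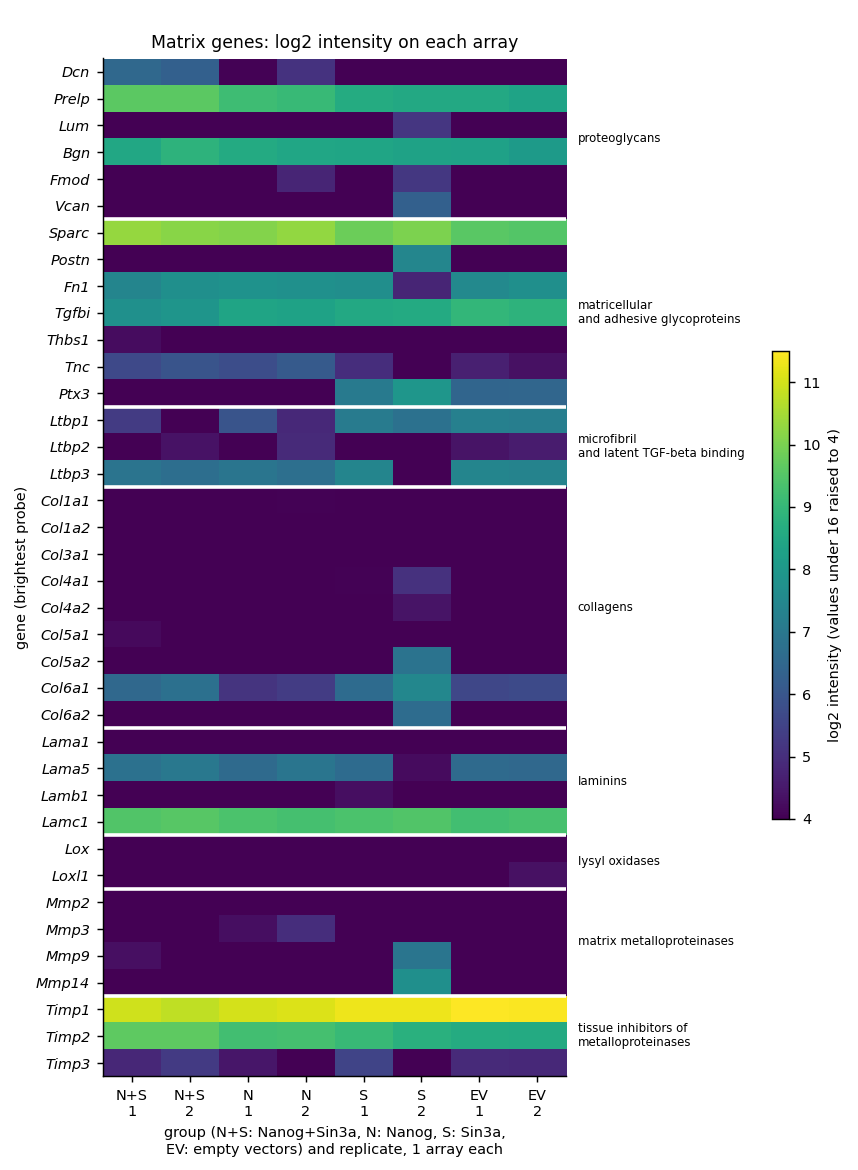
Log2 intensity (colour, values under 16 raised to 4) of the 38 measured matrix genes (vertical, brightest probe, grouped by role) on each of the 8 arrays (horizontal, 2 per group). Colours compare arrays within a gene and not genes with each other. Most collagens and metalloproteinases sit at the floor on the 7 arrays other than the second Sin3a array, on which 7 genes are above the floor that are at it everywhere else.

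Among the 14 genes above the floor on some arrays, 8 reached it on 1 array of the 7. Fibromodulin (Fmod) read 27.6 on the second Nanog array and thrombospondin-1 (Thbs1) 18.9 on the first Nanog+Sin3a array. Col5a1 read 18.3 and the gelatinase Mmp9 19.8 on that same first Nanog+Sin3a array. The type I collagen chain Col1a1 read 16.5 on the second Nanog array, and the lysyl oxidase Loxl1 read 20.2 on the second EV array. The type IV collagen chain Col4a1 (16.4) and the laminin chain Lamb1 (19.6) were above the floor on the first Sin3a array. These readings lie just past the floor, and none of the 8 genes entered a test. Genes above the floor on at least 2 of the 7 arrays were tested, which kept 18 of the 38 measured matrix genes (47.4%, against 52.4% of all symbols). Among these, Dcn was above the floor only on the 4 arrays with Nanog, Ptx3 only on the 3 without it and Mmp3 only on the 2 Nanog arrays. Each of them entered the test through the arrays where it was high, so its separation between groups is partly built in.

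Nanog alone against EV asks what Nanog changed in the matrix genes. The glycoprotein genes Tnc and Sparc, the proteoglycan Prelp and the protease inhibitor Timp2 rose, by 1.58- to 2.72-fold, and Ptx3 and Tgfbi fell. Thus 6 of 18 tested matrix genes passed limma's test with Benjamini-Hochberg adjustment over 12886 features at 0.05, 4 up, 2 down and 12 not passed, where 2.69% of all features passed (1.44% up and 1.25% down). The median change was 0.10 on the log2 scale over the 18 genes and 0.00 over all features. The 2 Nanog arrays were both above the 2 EV arrays for 8 of the 18 and both below for 7, against 25.1% and 24.6% of all features. Dcn and Mmp3 among the 8 and Ptx3 among the 7 entered the test only through the arrays where they were high. Ptx3 is also among the 6 that passed, so that count is partly built in. The count depended on single arrays: it was 0 with all 8 arrays on all features, 0 without the first or the second Nanog array or the first or the second EV array, and 1 without either Nanog+Sin3a array.

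The question for Nanog+Sin3a against EV is the joint change with both transgenes. Here 10 of 18 tested matrix genes passed, with 6 up (Dcn, Prelp, Timp2, Tnc, Col6a1 and Sparc), 4 down (Ltbp1, Ptx3, Tgfbi and Timp1) and 8 not passed, where 7.45% of all features passed (3.78% up and 3.67% down). The median change was 0.21 on the log2 scale over the 18 genes and 0.01 over all features. The arrays of the groups did not overlap for 9 genes upward and 6 downward, against 27.5% and 26.8% of all features. Dcn among the 9 and Ptx3 among the 6 entered the test only through the arrays where they were high. Both are also among the 10 that passed, so that count is partly built in. The count was 3 with all 8 arrays on all features, 0 without either Nanog+Sin3a array or either EV array, and 6 and 9 without the first and the second Nanog array. Both comparisons share the 2 EV arrays, so their values are given side by side and not as 2 independent observations.

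**Figure D2:**
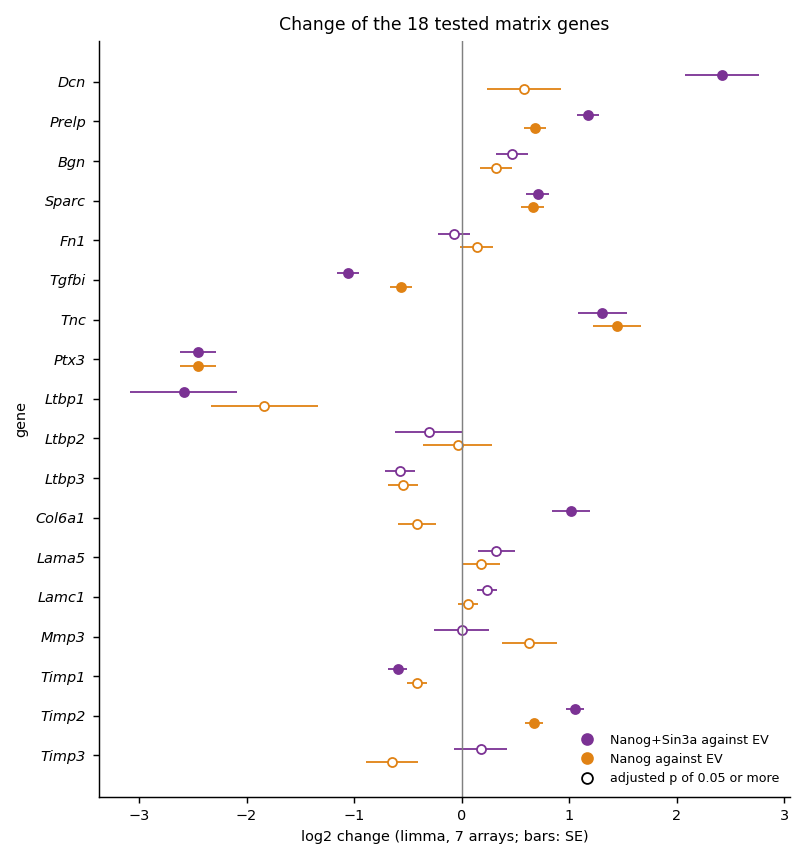
Log2 change (horizontal, limma on 7 arrays, bars are the SE) of the 18 tested matrix genes (vertical) for Nanog+Sin3a against EV (purple) and Nanog against EV (orange). Filled points passed at an adjusted p under 0.05. Dcn and Col6a1 are well to the right with both transgenes, whereas Ptx3 and Ltbp1 are far to the left in both comparisons.

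Of the 6 proteoglycan genes in the set, Prelp and Dcn passed with both transgenes. Prelp encodes a leucine-rich repeat protein that anchors basement membranes to connective tissue. It read 777 and 779.9 in the Nanog+Sin3a arrays, 582 and 529 in the Nanog arrays, 390.5 and 369 in the Sin3a arrays and 368 and 325 in the EV arrays. The 4 arrays with the Nanog transgene were all above the 4 without it, and within them both Nanog+Sin3a arrays were above both Nanog arrays. Among the 4 without Nanog, the second Sin3a array, at 369, lies in the range where it scattered. With both transgenes Prelp rose 2.25-fold (log2 1.17, SE 0.10, adjusted p = 0.00379) and 1.61-fold with Nanog (log2 0.68, SE 0.10, adjusted p = 0.0276).

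Dcn encodes decorin, which decorates collagen fibrils and binds TGF-beta. It read 92.6 and 79.4 in the Nanog+Sin3a arrays and 16.6 and 34.4 in the Nanog arrays, against 4.0 and -2.2 in the Sin3a arrays and 14.3 and -3.1 in the EV arrays. The Nanog+Sin3a arrays were far above the floor, the Nanog arrays were just over it, and the Sin3a and EV arrays were under it. The rise with both transgenes was at least 5.36-fold, or 2.42 on the log2 scale (SE 0.34, adjusted p = 0.0151), and the Nanog difference of 0.58 did not pass (SE 0.34, adjusted p = 0.417). Both EV arrays were raised to the floor, so their spread in the fit was 0 and was not measured. A second Dcn probe read 17.6 and 25.9 in the Nanog+Sin3a arrays and at most 4.6 in the other 6. Bgn, the related proteoglycan biglycan, read 358 and 456.5 in the Nanog+Sin3a arrays, 383 and 349 in the Nanog arrays, 338 and 323 in the Sin3a arrays and 315 and 271 in the EV arrays. Its differences from EV did not pass (0.47 with both transgenes, SE 0.15, adjusted p = 0.109, and 0.32 with Nanog, adjusted p = 0.296). Fmod was above the floor on 1 of the 7 arrays, and Lum and Vcan on 0.

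The matricellular and adhesive glycoproteins moved both ways. Sparc, a collagen-binding matricellular protein also called osteonectin, read 1277 and 1144 in the Nanog+Sin3a arrays, 1099.6 and 1249 in the Nanog arrays, 897 and 1042 in the Sin3a arrays and 769 and 714 in the EV arrays. Every array with a transgene was above both EV arrays, and those with Nanog were above those with Sin3a alone. With both transgenes Sparc rose 1.63-fold (log2 0.71, SE 0.10, adjusted p = 0.0172) and 1.58-fold with Nanog (log2 0.66, SE 0.10, adjusted p = 0.0315). A second Sparc probe gave 0.81 and 0.93 for the same comparisons, and another, dim probe of at most 42.6 gave -0.84 and -0.95. Tnc, the large glycoprotein tenascin-C, read 50.8 and 62.1 in the Nanog+Sin3a arrays, 54.8 and 69.4 in the Nanog arrays, 31.3 and -4.5 in the Sin3a arrays and 25.3 and 20.3 in the EV arrays. All 4 arrays with Nanog were above the 4 others, of which the second Sin3a array, at -4.5, lies in the range where it scattered. With both transgenes Tnc rose 2.48-fold (log2 1.31, SE 0.23, adjusted p = 0.0255) and 2.72-fold with Nanog (log2 1.44, SE 0.23, adjusted p = 0.0311), and its second probe gave 0.98 and 1.36.

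Tgfbi, a secreted adhesion protein induced by TGF-beta, went the other way. It read 219 and 241 in the Nanog+Sin3a arrays, 330.4 and 317 in the Nanog arrays, 368 and 388 in the Sin3a arrays and 497 and 462 in the EV arrays. The 4 groups stood apart without overlap in that order, lowest with both transgenes and highest in EV. For Sin3a this rests partly on the second array, at 388, in the range where it scattered. Tgfbi fell by 1.06 on the log2 scale with both transgenes (SE 0.10, adjusted p = 0.00540) and by 0.56 with Nanog (SE 0.10, adjusted p = 0.0456), and a second probe gave -1.35 and -0.30. Ptx3, a secreted pentraxin of innate defence that also builds the matrix around the oocyte, read 12.3 and 15.8 in the Nanog+Sin3a arrays and -14.7 and -3.9 in the Nanog arrays, against 135 and 247 in the Sin3a arrays and 86.8 and 88.4 in the EV arrays. This brightest probe was at the floor on the 4 arrays with Nanog and above it on the 4 without, of which the second Sin3a array, at 247, lies in its scattered range. The drop was at least 5.47-fold in both comparisons (log2 -2.45, SE 0.17), with adjusted p = 0.00214 with both transgenes and 0.00408 with Nanog. On the 4 arrays with Nanog the raised values had a spread of 0, so these p-values do not measure the spread of those arrays. Ptx3 was also tested only through the arrays where it was high. A second Ptx3 probe, at 23.5 on the second Nanog+Sin3a array and 21 on the second Nanog array, gave -1.80 and -1.88. Fn1, or fibronectin, read 169 and 214 in the Nanog+Sin3a arrays, 225 and 216 in the Nanog arrays and 186 and 215 in the EV arrays, with differences from EV of -0.07 (SE 0.15, adjusted p = 0.802) and 0.14 (SE 0.15, adjusted p = 0.664). In the Sin3a group Fn1 read 210.1 on the first array and 27.3 on the second. Thbs1 was above the floor on 1 array and Postn on 0 of 7, so neither was tested.

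The promoters of Sparc and Tgfbi are shown because these neighbours in function moved in opposite directions with Nanog. They are RefSeq sequences on GRCm38.p6, 130 bases up to the start site read 5′ to 3′, at chr11:55420081-55420210 on the minus strand for Sparc and chr13:56609456-56609585 on the plus strand for Tgfbi. Capitals mark matches on either strand to 4 short motifs, namely the AP-1 site TGANTCA, the Smad box CAGAC, the GC box GGGCGG and the TATA box TATAAA. Sparc holds a Smad box whose first base is 35 bases before the start, and Tgfbi holds a Smad box at 85 and a GC box at 124.
Sparc: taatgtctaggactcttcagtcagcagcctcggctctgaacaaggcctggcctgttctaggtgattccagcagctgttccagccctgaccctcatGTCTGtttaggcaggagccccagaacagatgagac
Tgfbi: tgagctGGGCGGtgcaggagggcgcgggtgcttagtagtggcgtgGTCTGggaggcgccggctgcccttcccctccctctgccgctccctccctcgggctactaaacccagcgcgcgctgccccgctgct

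The latent TGF-beta binding proteins hold inactive TGF-beta in the matrix, as Ltbp1 and Ltbp3 do, or bind microfibrils without it, as Ltbp2 does. Ltbp1 read 39.4 and 2.1 in the Nanog+Sin3a arrays and 61.5 and 29.0 in the Nanog arrays, against 138 and 110.3 in the Sin3a arrays and 153 and 149 in the EV arrays. All 4 arrays with Nanog were below the 4 without it, and the Nanog+Sin3a and Nanog arrays overlapped. Among the 4 without Nanog, the second Sin3a array, at 110.3, lies in the range where it scattered. Ltbp1 passed with both transgenes (log2 -2.59, SE 0.50, adjusted p = 0.0334), with 1 of the Nanog+Sin3a arrays at the floor, and the Nanog difference of -1.84 did not pass (SE 0.50, adjusted p = 0.119). A second Ltbp1 probe, annotated to another transcript of the gene, read 42.1 and 17 in the Nanog+Sin3a arrays, -0.6 and 20.0 in the Nanog arrays and 7.9 and 13.0 in the EV arrays, and gave 0.74 and 0.16 for the same comparisons. These probes therefore disagree in sign, and the drop is that of the brighter probe. Another of the 7 Ltbp1 probes, annotated to the same transcript as the brightest, read at most 0.4 on the 7 arrays. Probes thus differed within a transcript too. Ltbp3 read 119 and 105 in the Nanog+Sin3a arrays, 122 and 107 in the Nanog arrays and 171 and 162 in the EV arrays. Both Nanog+Sin3a arrays and both Nanog arrays were below both EV arrays, and they overlapped each other, but the differences from EV of -0.57 (SE 0.14, adjusted p = 0.0616) and -0.55 (SE 0.14, adjusted p = 0.106) did not pass, and they passed in both comparisons when 32 was added to every value in place of the floor (adjusted p = 0.0203 and 0.0399). A second Ltbp3 probe gave 0.00 and 0.36. Ltbp2 stayed between 5.2 and 29.9 on the 7 arrays and did not pass (-0.30 and -0.04).

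RefSeq lists Ltbp1 with 2 start sites 173252 bases apart, and the sequence before each is shown because the brightest and second probes are annotated to different transcripts. They lie at chr17:75005399-75005528 and chr17:75178651-75178780 on the plus strand of GRCm38.p6. Which start each probe reads was not examined. Transcript annotation does not sort the readings, since another probe of the brightest one's transcript was at the floor. Capitals mark a Smad box in each, at 64 bases before the first start and 97 before the second.
Ltbp1 start 1: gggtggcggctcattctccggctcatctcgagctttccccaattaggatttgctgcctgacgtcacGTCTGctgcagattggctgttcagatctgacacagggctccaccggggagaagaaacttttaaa
Ltbp1 start 2: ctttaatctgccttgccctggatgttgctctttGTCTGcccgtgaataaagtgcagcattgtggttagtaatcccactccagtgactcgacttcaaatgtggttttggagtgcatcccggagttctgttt

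Of the 9 collagen genes, 1 was tested. Col6a1 encodes a chain of type VI collagen, which forms beaded filaments beside basement membranes. It read 93.5 and 109.7 in the Nanog+Sin3a arrays and 35.1 and 40.1 in the Nanog arrays, with 99.2 and 176 in the Sin3a arrays and 48.2 and 51.8 in the EV arrays. On this brightest probe the 4 arrays with the Sin3a transgene were all above the 4 without it, a different split from that of the genes above. The second Sin3a array, at 176, lies in the range where that array scattered. With both transgenes Col6a1 rose 2.03-fold (log2 1.02, SE 0.18, adjusted p = 0.0260), and the Nanog difference of -0.41 did not pass (SE 0.18, adjusted p = 0.268). A second probe read 93.9 and 95.2 in the Nanog+Sin3a arrays, 30.2 and 36.4 in the Nanog arrays, 87.6 and 0.1 in the Sin3a arrays and 53.9 and 62.0 in the EV arrays. That probe gave 0.71 and -0.80, the same order of Nanog+Sin3a, EV and Nanog. On it the second Sin3a array was below all other arrays, so the split by Sin3a did not hold. Its partner chain Col6a2 was at the floor on all 7 arrays. The fibrillar chains Col1a1, Col1a2, Col3a1, Col5a1 and Col5a2 and the basement membrane chains Col4a1 and Col4a2 read at most 18.3 on the 7 arrays.

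The Col6a1 promoter, on the minus strand at chr10:76726045-76726174 of GRCm38.p6, is shown because among the 9 genes that passed with both transgenes and have a promoter sequence it alone holds an AP-1 match, in capitals, at 90 bases before the start.
Col6a1: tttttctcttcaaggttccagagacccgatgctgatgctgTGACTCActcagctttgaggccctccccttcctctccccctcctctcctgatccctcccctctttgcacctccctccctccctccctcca

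Laminins are the cross-shaped trimers of basement membranes, and 2 of the 4 laminin chains in the set were tested. Lamc1, the gamma chain common to most laminins, read 703 and 753 in the Nanog+Sin3a arrays, 667 and 621 in the Nanog arrays, 663 and 710.3 in the Sin3a arrays and 596 and 638 in the EV arrays. Lama5, an alpha chain of the basement membranes of early embryos and epithelia, read 111 and 127 in the Nanog+Sin3a arrays, 95.6 and 121 in the Nanog arrays and 96.9 and 92.8 in the EV arrays. Both Nanog+Sin3a arrays were above both EV arrays for each chain, and neither difference passed (Lamc1 0.24, SE 0.09, adjusted p = 0.163, and Lama5 0.32, SE 0.17, adjusted p = 0.293). The Nanog and EV arrays overlapped for both chains (0.06 and 0.18). Neither of the measured lysyl oxidases, Lox and Loxl1, was tested.

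The metalloproteinases were at or near the floor, whereas their inhibitors Timp1 and Timp2 were above it on every array. Mmp3, or stromelysin-1, read 19.3 and 31.8 in the Nanog arrays and at most 12.7 on the other 5 of the 7, and the Nanog difference from EV of 0.63 did not pass (SE 0.25, adjusted p = 0.244). Mmp9 read at most 19.8 on the 7 arrays, and Mmp2 and Mmp14 were at the floor.

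Timp1, a secreted inhibitor of most metalloproteinases, read 1992 and 1775 in the Nanog+Sin3a arrays, 2055 and 2211 in the Nanog arrays, 2514 and 2552 in the Sin3a arrays and 2846 and 2835 in the EV arrays. The 4 groups did not overlap and were lowest with both transgenes and highest in EV. Timp1 fell by 0.59 on the log2 scale with both transgenes (SE 0.09, adjusted p = 0.0182), and the Nanog difference of -0.41 did not pass in 7 arrays (SE 0.09, adjusted p = 0.0734) but did on the bright features of all 8 (adjusted p = 0.0164). A second Timp1 probe gave -0.49 and -0.36. Timp2, which inhibits metalloproteinases and also takes part in activating Mmp2, moved oppositely. It read 799 and 805 in the Nanog+Sin3a arrays, 602 and 628 in the Nanog arrays, 530.0 and 431 in the Sin3a arrays and 392 and 381 in the EV arrays. The 4 groups again did not overlap, highest with both transgenes and lowest in EV. Timp2 is bright by its mean, but its value on the second Sin3a array, 431, lies in the range where that array scattered. With both transgenes Timp2 rose 2.08-fold (log2 1.06, SE 0.08, adjusted p = 0.00247) and 1.59-fold with Nanog (log2 0.67, SE 0.08, adjusted p = 0.0143). Timp3, the inhibitor that stays bound to the matrix, read 28.6 and 38.8 in the Nanog+Sin3a arrays, 22.1 and 10.5 in the Nanog arrays and 29.5 and 29.4 in the EV arrays, and neither difference from EV passed (0.18 and -0.65, adjusted p = 0.683 and 0.220).

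The promoters of Timp1 and Timp2 are shown because these inhibitors moved in opposite directions. They lie at chrX:20870036-20870165 on the plus strand and chr11:118355412-118355541 on the minus strand of GRCm38.p6. Capitals mark a GC box in each, at 8 bases before the start of Timp1 and 37 before that of Timp2.
Timp1: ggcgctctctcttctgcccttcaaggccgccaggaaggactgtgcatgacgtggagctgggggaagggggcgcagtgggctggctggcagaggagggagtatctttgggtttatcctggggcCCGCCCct
Timp2: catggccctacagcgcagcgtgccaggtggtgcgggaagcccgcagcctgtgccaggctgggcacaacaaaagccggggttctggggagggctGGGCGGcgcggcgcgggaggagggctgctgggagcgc

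**Figure D3:**
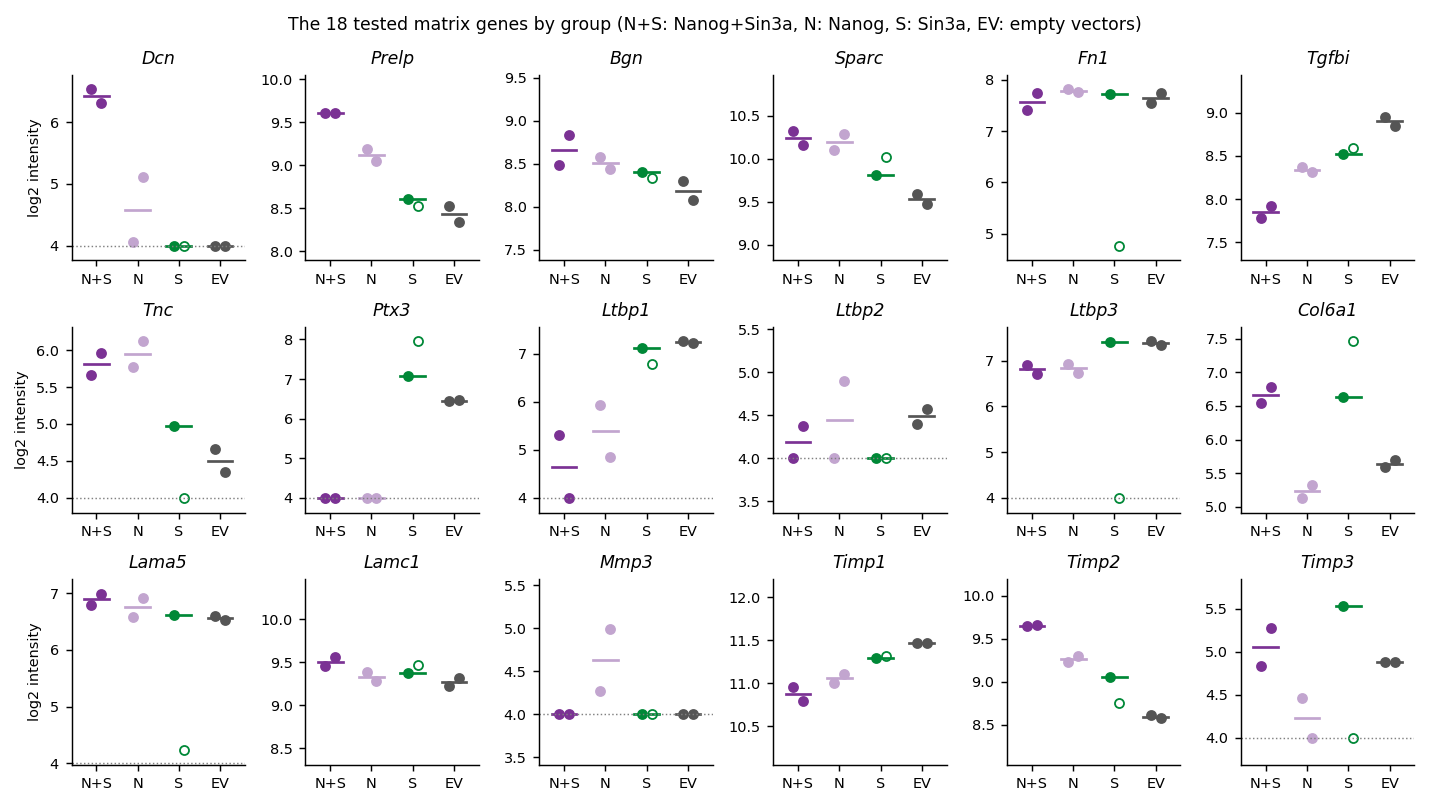
Log2 intensity (vertical, one panel and scale per gene) of the 18 tested matrix genes on each array (points), by group (horizontal). Bars are group means over the arrays fitted, the open green point is the second Sin3a array, which the 7-array fit leaves out, and the dotted line is the floor of 4. Prelp and Timp2 step down from Nanog+Sin3a to EV, Tgfbi and Timp1 step up, and Col6a1 is high on the Nanog+Sin3a and first Sin3a arrays.

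Promoter sequences over 300 bases (250 before the start and 50 after it) were at hand for 28 of the 41 genes, as 33 entries, and a match describes letters and not a bound factor. Both strands were searched, and overlapping matches of different motifs were each counted. The AP-1 site was in 3 of 33 entries (9.09%, against 7.81% of 32851 promoters in all) and the TATA box in 6 (18.2%, against 13.6%). The Smad box was in 20 (60.6%, against 49.6%) and the GC box in 19 (57.6%, against 35.7%). Of the 9 genes that passed with both transgenes and had a promoter entry, 5 held a Smad box (Ltbp1, Prelp, Sparc, Tgfbi and Tnc) and 4 a GC box (Tgfbi, Timp1, Timp2 and Tnc). Both lists hold genes that rose and genes that fell.

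Across the 7 arrays, 11 of the 18 tested genes separated the 4 arrays with the Nanog transgene from the 3 without it. Dcn, Prelp, Bgn, Sparc, Timp2 and Tnc were higher on every array with Nanog, and Ltbp1, Ltbp3, Timp1, Tgfbi and Ptx3 were lower. The 6 higher and 5 lower genes compare with 11.9% and 12.5% of all features, and 7 genes overlapped. For Dcn and Ptx3 the split was built in, since each was above the floor only on the side where it was high and was tested through those arrays. Where a gene had a second probe above the floor on at least 2 of the 7 arrays, that probe served as a check on the first. Of 12 such genes, 9 had the same direction for Nanog+Sin3a minus EV, 2 the opposite (Ltbp1 and Timp3) and 1 gave 0.00 (Ltbp3). For Dcn the direction was built in, since its second probe was above the floor only on the Nanog+Sin3a arrays. A further, dim Sparc probe, outside this count, gave -0.84. For Nanog minus EV the signs differed for Ltbp1 (-1.84 against 0.16), Ltbp3 (-0.55 against 0.36) and Fn1 (0.14 against -0.48). There the second Dcn probe gave 0.00, and the rest kept their direction. The second probes of Fn1 and Dcn differed in size from the brightest, with -1.07 against -0.07 for Fn1 and 0.42 against 2.42 for Dcn.

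**Figure D4:**
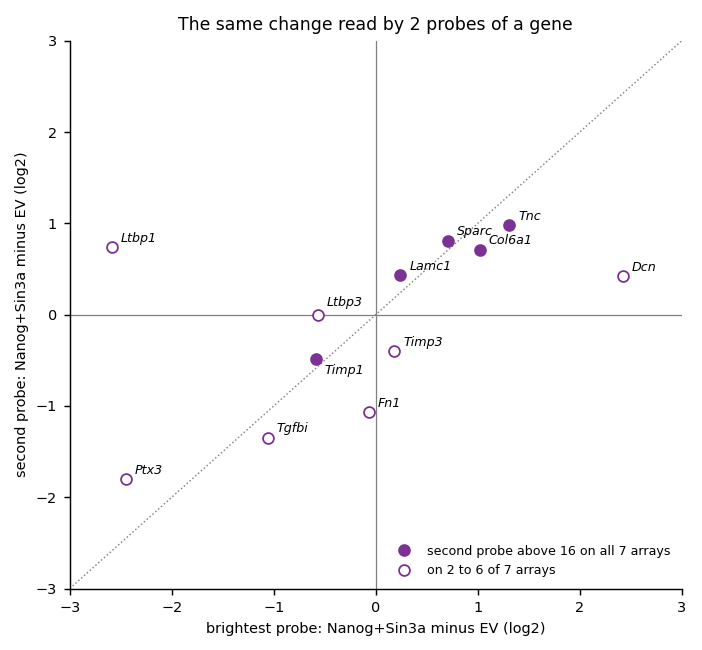
Log2 difference of Nanog+Sin3a minus EV read by the brightest probe (horizontal) and by the second probe (vertical) of 12 matrix genes, with the dotted line marking equal values. Filled points have a second probe above 16 on all 7 arrays. Sparc, Tnc, Col6a1, Lamc1 and Timp1 lie near the line, and Ltbp1 lies in the upper left, -2.59 against 0.74.

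Nanog+Sin3a against Nanog asks what Sin3a added on top of Nanog. The matrix genes with the largest differences were Dcn (1.84, SE 0.34, adjusted p = 0.206) and Col6a1 (1.43, SE 0.18, adjusted p = 0.119), both higher with both transgenes, and none of the 18 passed. Limma called 0 of 18 at an adjusted p under 0.05 and 7 at an unadjusted p under 0.05, while over all features 2 passed (0.0155%) and 1413 (11%) had an unadjusted p under 0.05. Prelp (0.49, SE 0.10) and Timp2 (0.38, SE 0.08) were higher and Tgfbi (-0.49, SE 0.10) lower on both Nanog+Sin3a arrays than on both Nanog arrays, with adjusted p = 0.238, 0.238 and 0.230. In all, 6 of the 18 genes were higher and 4 lower without overlap, against 17.8% and 16.8% of all features. With a floor of 32 in place of 16, 2 genes passed, Col6a1 (1.43, adjusted p = 0.0197) and Dcn (1.37, adjusted p = 0.0159), and with an offset of 32 Col6a1 alone did (0.94, adjusted p = 0.00513).

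Nanog+Sin3a against Sin3a asks what Nanog added on top of Sin3a, and could be tested for the 4 bright matrix genes, Timp1, Timp2, Sparc and Lamc1. Timp2 rose 1.68-fold (log2 0.75, SE 0.14, adjusted p = 0.00161) and Timp1 fell by 0.43 (SE 0.10, adjusted p = 0.00986), so 1 of 4 passed upward and 1 downward, where 5.61% and 5.96% of bright features did. Sparc (0.32, SE 0.12, adjusted p = 0.0872) and Lamc1 (0.08, SE 0.13, adjusted p = 0.719) did not pass. Timp1 no longer passed without the second Nanog+Sin3a array (adjusted p = 0.0953) or without the first (0.0648) or second (0.125) Sin3a array, and Timp2 passed without any 1 array. The arrays did not overlap for 2 genes upward and 1 downward, against 30.1% and 29.3% of bright features. In the 7-array fit over all features the Sin3a group is 1 array, the first, so its differences are given as values only. They were -3.08 for Ptx3, 1.00 for Prelp and 2.42 for Dcn, which lie below the bright range, and 0.60 for the bright Timp2. Ptx3 and Dcn entered that fit through the arrays where they were high.

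Sin3a alone against EV asks what Sin3a changed without Nanog. None of the 4 bright matrix genes passed, with Sparc at 0.38 (SE 0.12, adjusted p = 0.398), Timp2 at 0.31 (SE 0.14, adjusted p = 0.621), Lamc1 at 0.15 (adjusted p = 0.837) and Timp1 at -0.17 (adjusted p = 0.764). Limma called 0 of 4, where 0.174% of bright features passed, and 2 of 4 had an unadjusted p under 0.05, where 7.83% of bright features did. Both Sin3a arrays were above both EV arrays for Sparc, Timp2 and Lamc1 and below them for Timp1, where 21.0% and 19.5% of bright features did not overlap upward and downward. Col6a1 and Ptx3 lie below the bright range. On the brightest probe both Sin3a arrays read higher than both EV arrays for each. On the 7 arrays their differences of 0.99 and 0.63 rest on the first Sin3a array and are given as values only. A second Col6a1 probe read 0.1 on the second Sin3a array. For Fn1, Ltbp3, Lama5 and Tnc the second Sin3a array read 27.3, 12.2, 18.8 and -4.5, where the first read 210.1, 169.9, 98.7 and 31.3, well under the 2 EV arrays. The interaction, the Sin3a difference with Nanog minus that without it, passed for 0 of the 4 bright genes in limma (0 also at an unadjusted p under 0.05), where 0.0435% of bright features passed, and the widest value was -0.34 for Sparc (SE 0.17, adjusted p = 0.744).

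Genes around the set were read from lists of the same pathways, counted without the genes above. Their counts stand beside the 7.45% of all features that passed with both transgenes (3.78% up) and the 2.69% with Nanog (1.44% up). Of 15 tested genes of collagen processing, 3 rose with both transgenes and 12 did not pass, namely P3h2, a prolyl 3-hydroxylase (1.12, SE 0.17, adjusted p = 0.0194), Loxl4, a lysyl oxidase (0.83, adjusted p = 0.00850), and Crtap, which works with prolyl 3-hydroxylase (0.57, adjusted p = 0.0436). With Nanog alone Loxl4 rose (0.84, adjusted p = 0.0128) and 14 did not pass. Of 9 other collagens, 0 passed in limma in either comparison, with Col16a1 at 0.70 and 0.90 (adjusted p = 0.075 and 0.066). Among 11 basement membrane genes, the laminin chain Lamb2 rose in both (0.82 with both transgenes, adjusted p = 0.0308, and 0.87 with Nanog, adjusted p = 0.0418) and 10 did not pass. Among 17 other proteoglycans and matricellular genes, 3 rose with both transgenes, the glypican Gpc1 (0.66, adjusted p = 0.0205), Ccn2, or connective tissue growth factor (0.73, adjusted p = 0.0331), and Ecm1 (0.73, adjusted p = 0.0393), and 14 did not pass, while none passed with Nanog. Among 15 other proteases and inhibitors, the urokinase gene Plau rose with both transgenes (1.35, SE 0.24, adjusted p = 0.0270) and was at 1.04 with Nanog, where it did not pass (adjusted p = 0.082), and with a floor of 32 the Plau value with both transgenes was 0.35 and did not pass (adjusted p = 0.182). Counts of 1 in lists this small are too few to set against the share of all features.

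On the receiving side, 1 of 18 tested integrins and matrix receptors fell with both transgenes and 17 did not pass, where 3.67% of all features fell. This was Itga7, a laminin-binding integrin chain (-1.19, SE 0.19, adjusted p = 0.0195), at -0.80 with Nanog (adjusted p = 0.087). Of 18 tested genes of the TGF-beta pathway, Id2, an inhibitor of basic helix-loop-helix factors and a target of BMP signalling, fell by 1.06 with both transgenes (SE 0.16, adjusted p = 0.0173) and by 1.28 with Nanog (adjusted p = 0.0155), and 17 did not pass, where 3.67% and 1.25% of all features fell. A single gene of 18 is too few to set against those shares. The genes named from these lists for Nanog+Sin3a against EV lost their call when any 1 Nanog+Sin3a or EV array was left out, and those for Nanog against EV when any 1 array was left out of the Nanog, Nanog+Sin3a or EV groups. Median changes with both transgenes were 0.20 for collagen processing, 0.01 for other collagens, 0.32 for basement membrane, 0.00 for other proteoglycans and matricellular genes, 0.09 for other proteases and inhibitors, 0.12 for integrins and receptors and -0.03 for the TGF-beta pathway, beside 0.01 over all features. None of these lists held a gene that passed between Nanog+Sin3a and Nanog.

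Markers of cell types that could contribute matrix transcripts were read on the same arrays, and fewer cells of a type cannot be told apart from less RNA per cell in bulk samples. Over 17 genes of mesenchymal cells and fibroblasts the summed intensity was 4923 to 5379 in the Nanog+Sin3a arrays, 5227 to 5309 in the Nanog arrays, 4921 to 5140 in the Sin3a arrays and 4148 to 4223 in the EV arrays. Vim alone read 2199.9 to 2973.3 on the 7 arrays. Here and below, the Sin3a sums include the dim values of the second Sin3a array. Thy1, a surface glycoprotein (0.75 with both transgenes and 1.13 with Nanog), and Vim, or vimentin (0.38 with both), passed among 11 tested, whereas Pdgfrb, Twist2, Prrx1, Fap and Tagln were at or under the floor on all 7 arrays. Over 12 endoderm genes the sums were 957 to 979 with both transgenes, 1006 to 1215 with Nanog, 1384 to 1532 with Sin3a and 1423 to 1519 in EV, with Gata4, Gata6, Sox17 and Foxa2 at or under the floor. These sums largely follow Dab2, which read 722.6 to 1371.3 on the 7 arrays. Of the 4 endoderm genes tested, Srgn rose (0.84) and Dab2 fell (-0.83) with both transgenes. Over 8 endothelial genes the sums were 520 to 547 with both transgenes, 343 to 370 with Nanog, 430 to 595 with Sin3a and 231 to 242 in EV. Flt1 alone read 137.9 to 396.5 on the 7 arrays. Of 5 tested, Flt1 (1.49) and Tek (1.22) rose and Esam (-1.08) fell with both transgenes.

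Over 10 neural stem cell genes the sums were 433 to 476 with both transgenes, 482 to 533 with Nanog, 842 to 912 with Sin3a and 725 to 785 in EV. These sums largely follow Egfr, which read 371.7 to 695.7 on the 7 arrays. Nes (-0.78) and Egfr (-0.73) fell with both transgenes among 3 tested, and Pax6, Fabp7, Olig1, Olig2 and Gfap were at or under the floor. Over 13 pluripotency genes, with the Nanog transgene among them, the sums were 1494 to 1658, 1655 to 1948, 1180 to 1450 and 1331 to 1470 in Nanog+Sin3a, Nanog, Sin3a and EV. Nanog itself added 289.5 and 285.2 to the Nanog+Sin3a sums and 364.8 and 485.8 to the Nanog sums, and nothing to the others. Of 8 tested Nanog, the transgene, passed. Over 9 epithelial genes the sums were 1204 to 1551, 1142 to 1164, 1459 to 1646 and 1501 to 1552 in Nanog+Sin3a, Nanog, Sin3a and EV. Krt8 alone read 816 to 1198.7 on the 7 arrays, and none of 6 tested passed in either comparison with EV. None of the 6 measured myeloid and blood genes was tested. The marker calls with both transgenes stand beside 7.45% of all features and were lost when any 1 Nanog+Sin3a or EV array was left out. The part of these marker differences in the matrix genes' values was not tested.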

How the data were processed

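RNA of 8 samples was measured on Illumina bead arrays, as biotinylated cRNA. The deposited intensity per probe comes from GenomeStudio, per the submitters' processing notes, with version and settings not given in the sources used here. Values were linear, with 47.3% to 47.7% below 0, so a background had been subtracted before deposit, and 35.7% to 36.1% of probes per array were above 16. The lowest value was -24 and the highest 14965.3 on all 8 arrays, as after quantile normalization before deposit. Quantile normalization among the alternatives could therefore change little, and it left the median changes over all features as deposited. For arrays, their number limits the precision.

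From these values log2 was taken after raising values under 16 to 16. In the annotation 34885 probes had 1 symbol, 10378 had none and 18 had several. Each symbol kept its brightest probe by the mean over 8 arrays, and unnamed probes stayed as features of their own. Features above the floor in at least 2 fitted arrays were tested with limma 3.58.1 in R 4.3.3 (lmFit, and eBayes with an intensity trend), two-sided, adjusted by Benjamini-Hochberg over all features tested at 0.05. The 7-array fit (12886 features) had 3 residual degrees of freedom and the fit of 8 arrays on bright features (2300) had 4. The 7 arrays leave out the second Sin3a array, whose dim values scattered. A group at the floor gives a fold as a lower bound.

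All tested matrix genes are named, and of the other lists those that passed plus a few given as values. The procedure was checked on simulated data. Alternatives were another floor, an offset, no filter, other scalings, the mean of a symbol's probes, array weights, a replicate block, all 8 arrays and each array left out. The members and lists were chosen with earlier results of these data known. Promoters came from RefSeq for GRCm38.p6.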

Additional observations from a re-analysis of the deposited data

Results flagged for a closer look

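The second Sin3a array, which the 7-array comparisons do not use, gave readings above the floor for 7 matrix genes that were at or below 16 on the other 7 arrays. They were Mmp14, a membrane-bound metalloproteinase, at an intensity of 212.4, the matricellular gene Postn at 174.2, the collagen chains Col5a2 at 115.9, Col6a2 at 101 and Col4a2 at 21, the proteoglycan Vcan at 79 and the proteoglycan Lum at 36.5. These 7 are 18.4% of the 38 measured matrix genes, and 12.2% of all 19057 symbols read in the same way. No other array of the Sin3a group has such readings, so these values have no replicate. Probes were chosen as the brightest over all 8 arrays, this one included, so the list and both shares are partly built in. For Postn, Mmp14, Col5a2 and Vcan another probe was brightest over the other 7 arrays. On that other probe the second Sin3a array read 0.5 for Postn, 7.6 for Mmp14 and 9.9 for Col5a2, all under the floor.

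Acta2, the smooth muscle actin and a marker of contractile mesenchymal cells, differed in its response to Sin3a with and without Nanog. The interaction was -1.54 on the log2 scale over the bright features (SE 0.21, limma, adjusted p = 0.000863). Acta2 rose with Sin3a alone against EV (1.02, SE 0.15, adjusted p = 0.00101) and was lower with Nanog+Sin3a than with Sin3a (-0.84, SE 0.15, adjusted p = 0.000775). Without the second EV array the interaction was -1.43 and did not pass (adjusted p = 0.0600), nor did the rise with Sin3a (0.92, adjusted p = 0.197). The interaction did not pass over all features of 8 arrays (adjusted p = 0.752) or 7 (0.532). It was the 1 bright feature whose interaction passed, a count of 0 to 17 on leaving out 1 array, and it is not one of the 41 matrix genes.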

How the results depend on the processing

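Each of 66 fitted values of the matrix genes was recomputed under every alternative that kept the gene. Of 1140 recomputed values 26 changed sign, and all 26 belong to values that had not passed. Where the arrays of 2 groups do not overlap, leaving out an array cannot turn the sign, so such values say nothing of stability. The same holds for alternatives that leave both group means as they were. These include another filter, array weights equal within a group, the replicate block and leaving out an array of another group. Tnc for Nanog against EV, for instance, stayed at 1.44 with another filter, the replicate block and without either Nanog+Sin3a array. The share of kept signs was thus partly fixed in advance. With the mean of probes Fn1 was -0.13 for Nanog against EV and Timp3 -0.07 for Nanog+Sin3a against EV, with an offset Ltbp2 was 0.03 for Nanog+Sin3a against Nanog, and for the interaction Timp2 was -0.07 on 7 arrays and Lamc1 -0.02 with median centring. Leaving out 1 array at a time gave values on both sides of 0, -0.49 to 0.41 for Ltbp2 with Nanog against EV, and -0.24 to 0.10 for Fn1 and -0.04 to 0.40 for Timp3 with Nanog+Sin3a against EV. In Nanog+Sin3a against Nanog they were -0.31 to 0.04 for Tnc, -0.72 to 0.19 for Ltbp2, -0.03 to 0.31 for Lama5, -0.12 to 0.07 for Ltbp3, -0.03 to 0.32 for Bgn and -0.05 to 0.14 for Sparc, and in the interaction -0.07 to 0.23 for Timp2, -0.03 to 0.07 for Lamc1 and -0.10 to 0.07 for Timp1.

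For Nanog against EV the count of 6 of 18 genes became 0 of 21 with all 8 arrays on all features, 3 of 4 on bright features (Timp1, Timp2 and Sparc), 1 of 38 with no filter, 3 with the mean of probes, 8 with a floor of 32 and 9 with an offset. For Nanog+Sin3a against EV the count of 10 became 3 of 21, 3 of 4, 3 of 38, 5, 11 and 11 under the same settings. For Nanog+Sin3a against Nanog the count of 0 became 2 with a floor of 32 and 1 with an offset of 32. For Nanog+Sin3a against Sin3a the count of 2 of 4 became 0 of 21 with all 8 arrays on all features and 4 of 7 with a lower threshold for bright features. Leaving out 1 array at a time gave 0 to 6, 0 to 10, 0 to 0 and 1 to 3 genes in these 4 comparisons. Sin3a against EV and the interaction stayed at 0 matrix genes. The share of all features under each setting is not set beside these counts. They therefore show how the counts moved and do not compare the matrix genes with all features.

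Over all features the first range is over other settings and the second over leaving out 1 array. The 347 for Nanog against EV became 0 to 834 and 0 to 395, the 960 for Nanog+Sin3a against EV 35 to 1466 and 0 to 1009, and the 2 for Nanog+Sin3a against Nanog 0 to 36 and 0 to 6. The 4 for Sin3a against EV became 0 to 11 and 1 to 12, the 266 for Nanog+Sin3a against Sin3a 19 to 383 and 81 to 446, and the 1 for the interaction 0 to 3 and 0 to 17. Choosing probes by 7 arrays, an alternative added after the data were seen, left the matrix gene counts as they were. The cause of these changes was not tested.

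Replicate numbers did not pair the samples: same-numbered arrays deviated with correlations of -0.051, -0.024 and -0.061. With the replicate block 3 matrix genes passed for Nanog against EV (2 up and 1 down) and 10 for Nanog+Sin3a against EV, counts that also stand without the share of all features. With 2 arrays a group, genes near the floor carry the least certain values.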
